A study of Mus musculus with 35 samples.

Results

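Matricellular proteins and fibril-associated glycoproteins of the extracellular matrix are described here in sorted mouse pancreatic ductal adenocarcinoma (PDAC) cells. The 10 genes, out of 53465 in the count table, were taken by symbol: *Spp1*, *Thbs1*, *Thbs2*, *Tnc*, *Postn*, *Sparc*, *Tgfbi*, *Fn1*, *Fbn1* and *Eln*. Each symbol matched a single row, and all 10 passed the filter on low counts in each of 18 comparisons. The series holds 35 RNA-seq libraries of tumor cells grown in the pancreas, the liver or the lungs, and was made to ask what restoring *Smad4* does in a primary tumor and in metastases of these organs.

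All libraries come from KC-shSmad4 cells, cultured lines derived from mice with Ptf1a Cre, a Cre-activated rtTA3 with the fluorescent protein mKate2, and a doxycycline (Dox)-inducible shRNA against *Smad4* linked to GFP. Every group thus carries the shRNA, and Ptf1a Cre restricts recombination to the pancreatic lineage of the donor mice. Hosts were female Foxn1nu (athymic nude) mice of 6 to 8 weeks, which lack T cells, and they ate Dox chow. Cells were injected into the tail of the pancreas for primary tumors, into the spleen before splenectomy for the liver, or into the tail vein for the lungs. By the labels, Dox was withdrawn for libraries labelled Smad4 on, at 4 weeks in the pancreas, 5 weeks in the liver and 6 weeks in the lungs. Sorting of mKate2-positive cells followed 7 or 14 days later. Libraries labelled Smad4 off are, by the same labels, from hosts kept on Dox. The *Smad4* counts given below go against these labels. On day 7 the pancreas gave 3 libraries labelled off and 2 labelled on, the liver 2 and 3, and the lungs 4 and 2. On day 14 the pancreas gave 2 and 3, the liver 3 and 3, and the lungs 4 and 4. The organ cannot be told apart from the route of injection or the weeks of growth.

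The matricellular proteins (osteopontin, thrombospondins, tenascin-C, periostin, SPARC and TGFBI) are secreted into the matrix and act less as scaffold than as signals that bind integrins, growth factors and collagen. Fibronectin assembles into fibrils through integrins and is a scaffold on which other matrix is laid down, while fibrillin-1 microfibrils hold latent TGF-β and guide the deposition of elastin. SMAD4 is the partner through which receptor-activated SMADs of the TGF-β pathway act on transcription, and many matrix genes respond to this pathway. In PDAC such proteins are made by carcinoma cells and by fibroblasts of the dense stroma.

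Library totals were 11885461 to 43571007 counts (median 19415320), so that the floor of 3 counts corresponds to 0.0689 to 0.252 CPM (counts scaled to library size), for counting error alone. *Smad4* itself ranged from 69.9 to 143 CPM over the 18 libraries labelled Smad4 off but from 14.8 to 22.4 CPM over the 17 labelled Smad4 on, which goes against the labels, and every direction below is between libraries as labelled. SMAD4 protein and the GFP linked to the shRNA were not analysed here. Ductal markers (*Krt7*, *Krt8*, *Krt18*, *Krt19*, *Epcam* and *Cdh1*) summed to 2550 to 7850 CPM in the pancreas, 6110 to 14400 CPM in the lungs and 12100 to 16500 CPM in the liver libraries other than the paired-end one described next (3770 CPM), with none at 0. The liver library of mouse 2, labelled Smad4 off on day 7, was the single paired-end library and stood apart. Its 10 fibroblast markers summed to 36200 CPM, against 261 to 4350 CPM in the other livers, and its 5 acinar markers to 320 CPM, against at most 16.7 CPM. Counts on *mt-Co3* appeared in 10 of the 35 libraries, none of them from the pancreas.

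The promoters of *Thbs2*, *Sparc* and *Postn*, which differed most between lungs and pancreas and moved together across libraries, and that of *Tgfbi*, whose difference between labels was called between liver and lungs, though not without the paired-end library, are shown as the 250 bases before the RefSeq start (GRCm38.p6), 5′ to 3′ on the gene's strand. Capitals mark matches on either strand to CAGAC for the Smad box, to TGANTCA for the motif of AP-1, to TATAAA for the core element near many start sites, to GGGCGG for the box bound by Sp1, to CACCC for the box bound by KLF factors, or to TGTGGT for the motif of RUNX factors. No match overlapped another in these 4 windows.
Thbs2, chr17:14694263-14694512, minus strand: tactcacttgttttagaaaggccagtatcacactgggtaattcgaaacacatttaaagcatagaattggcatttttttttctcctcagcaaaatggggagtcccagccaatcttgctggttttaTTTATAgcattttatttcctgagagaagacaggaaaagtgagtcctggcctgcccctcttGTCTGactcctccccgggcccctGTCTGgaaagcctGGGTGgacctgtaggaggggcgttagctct
Sparc, chr11:55420081-55420330, minus strand: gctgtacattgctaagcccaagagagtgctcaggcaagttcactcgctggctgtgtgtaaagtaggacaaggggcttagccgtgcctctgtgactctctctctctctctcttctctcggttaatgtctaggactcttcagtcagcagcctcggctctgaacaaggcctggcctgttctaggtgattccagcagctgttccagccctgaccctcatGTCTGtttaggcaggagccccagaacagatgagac
Postn, chr3:54360857-54361106, plus strand: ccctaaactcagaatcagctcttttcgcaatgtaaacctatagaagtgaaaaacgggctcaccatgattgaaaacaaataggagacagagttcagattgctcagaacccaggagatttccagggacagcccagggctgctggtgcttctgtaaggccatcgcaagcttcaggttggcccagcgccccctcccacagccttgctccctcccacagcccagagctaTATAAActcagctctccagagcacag
Tgfbi, chr13:56609336-56609585, plus strand: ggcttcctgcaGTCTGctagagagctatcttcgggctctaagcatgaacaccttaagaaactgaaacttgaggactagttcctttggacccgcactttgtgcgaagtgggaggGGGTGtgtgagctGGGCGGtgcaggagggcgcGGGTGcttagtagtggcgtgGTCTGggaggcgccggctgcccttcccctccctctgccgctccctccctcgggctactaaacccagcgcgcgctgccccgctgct
Promoter sequences were matched for 7 of the 10 members, and *Thbs1*, *Fn1* and *Eln* were not matched. The Smad box was found 2 times in the *Thbs2* window, with its first bases 66 and 43 before the start, 1 time in *Sparc* (35 before), 2 times in *Tgfbi* (239 and 85 before) and 0 times in this *Postn* window, and it occurs in 42.2% of the 32851 promoters of this length. *Postn* held a TATAAA match 26 bases before the start and *Thbs2* a reversed one 126 bases before it, against 12.4% of all promoters. *Tgfbi* had 2 KLF-type boxes and *Thbs2* 1, against 52% of promoters with any, and *Tgfbi* had 1 Sp1 box, against 32.7%. The AP-1 motif, present in 6.75% of promoters, and the RUNX motif, present in 14%, matched none of the 4 windows. RefSeq lists another *Postn* promoter farther upstream (chr3:54359017-54359266), not printed here, with a Smad box 191 and a KLF-type box 57 bases before its start. These are matches of letters and not known sites.

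Osteopontin was the most abundant member. Per kilobase of exon, *Spp1* ranked 1 of the 10 in all 35 libraries, with a median of 4920 CPM per kb (range 453 to 9070). *Fn1* had a median of 417 CPM per kb (29.4 to 1510) and ranked 2 in 26 libraries, and *Sparc*, with a median of 72.8 CPM per kb (10.6 to 1260), ranked 2 in the other 9. Down the order of medians per kb came *Thbs1* (43.9), *Eln* (23.3), *Tgfbi* (17.8), *Tnc* (13.9), *Fbn1* (12.8), *Thbs2* (2.42) and *Postn* (1.62). From *Thbs1* downward, neighbours in this order crossed between libraries, since *Thbs1* ranked anywhere from 3 to 9 and *Postn* from 4 to 10. The range from the lowest to the highest library was narrowest for *Spp1* (19.9-fold) and widest for *Postn* (821-fold) and *Thbs2* (472-fold).

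**Figure D1:**
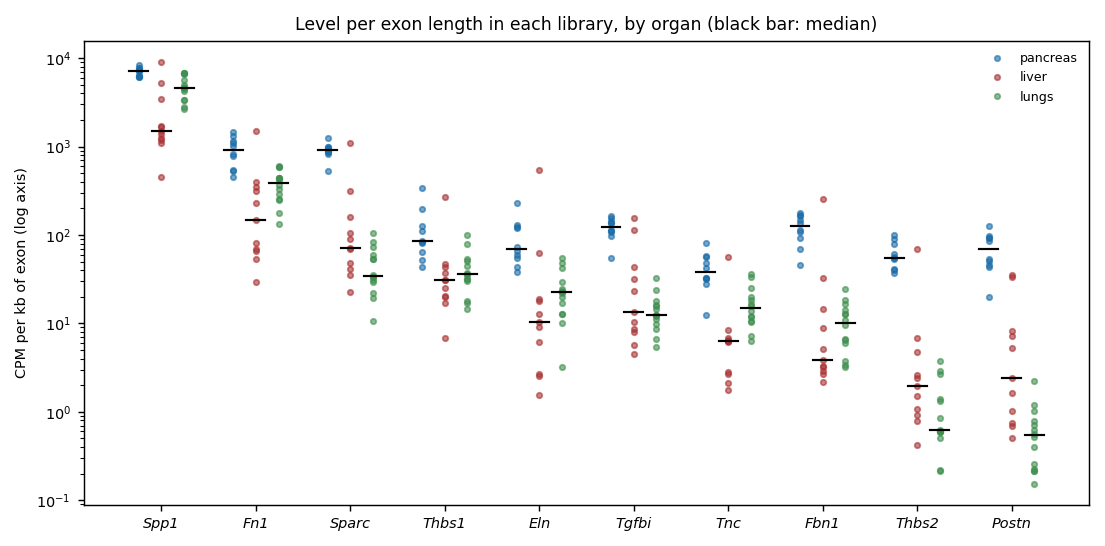
Level of each gene per exon length (CPM per kb, log axis) in each of the 35 libraries, colored by organ, with a black bar at the organ's median and genes ordered by their median over all libraries. *Spp1* has the highest median in each organ, and *Thbs2* and *Postn* lie far lower in the lungs and in most liver libraries than in the pancreas.

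Levels were compared between organs within each label, to see how the site of growth goes with these genes. CPM are scaled here by TMM factors. Calls are from edgeR (quasi-likelihood, Benjamini-Hochberg adjusted over all genes) and needed more than a 2-fold difference together with an adjusted p below 0.05. In libraries labelled Smad4 on, all 10 members were lower in the liver than in the pancreas, by 4.07-fold (*Thbs1*) to 29.6-fold (*Thbs2*). All 10 were called, where 22.1% of 15377 genes were. For all 10 the highest of 6 liver libraries lay below the lowest of 5 pancreas libraries, and the share of all genes so separated was not counted. The median log2 fold change of the members was -3.24, against 0.04 over all genes. In sorted bulk cells, fewer cells of a type and less RNA per cell cannot be told apart. Against the pancreas, 8 members were lower in the lungs, where 13.4% of genes were called, and the exceptions by edgeR were *Spp1* (log2 fold change -0.58 ± 0.25, SE) and *Tnc* (-1.25 ± 0.53). Between liver and lungs, with 10.4% of genes called, *Fn1*, *Spp1* and *Tnc* were lower in the liver and *Postn* was higher.

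In libraries labelled Smad4 off, 7 members were lower in the lungs than in the pancreas, with 18.3% of 15305 genes called, the others being *Spp1*, *Tnc* and *Eln*. The call of *Thbs1* was lost without any of 5 libraries of 18 (-1.49 to -1.16), mouse 3 of the pancreas and mice 1 and 3 of the lungs on day 7 and mice 1 and 2 of the pancreas on day 14. *Tnc* and *Eln* were called as well, and *Spp1* alone was not, when the paired-end liver library was left out of the shared fit, where 19.5% of genes were called. Against the pancreas, the liver was lower for *Postn* alone (log2 fold change -3.01 ± 0.91, adjusted p = 0.0343), with 8.79% of genes called, and this call was lost in 7 of 18 fits without 1 library (-3.28 to -2.68). Without the paired-end liver library, 9 members were lower in the liver, all but *Eln*, with 15.9% of genes called. Liver exceeded lungs for *Postn*, *Sparc*, *Tgfbi* and *Thbs2*, with 3.87% of genes called, but without the paired-end library the calls were *Tgfbi*, higher in the liver (log2 fold change 1.66 ± 0.47), and *Tnc*, lower in the liver (-1.76 ± 0.36), with 4.32% called. Among libraries without *mt-Co3* counts, all 10 members were lower in the liver than in the pancreas under both labels, by -5.27 to -1.74 in mean log2 CPM labelled on and by -5.16 to -1.24 labelled off. The same held for the lungs, from -6.77 to -0.44 labelled on and from -5.6 to -0.32 labelled off.

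**Figure D2:**
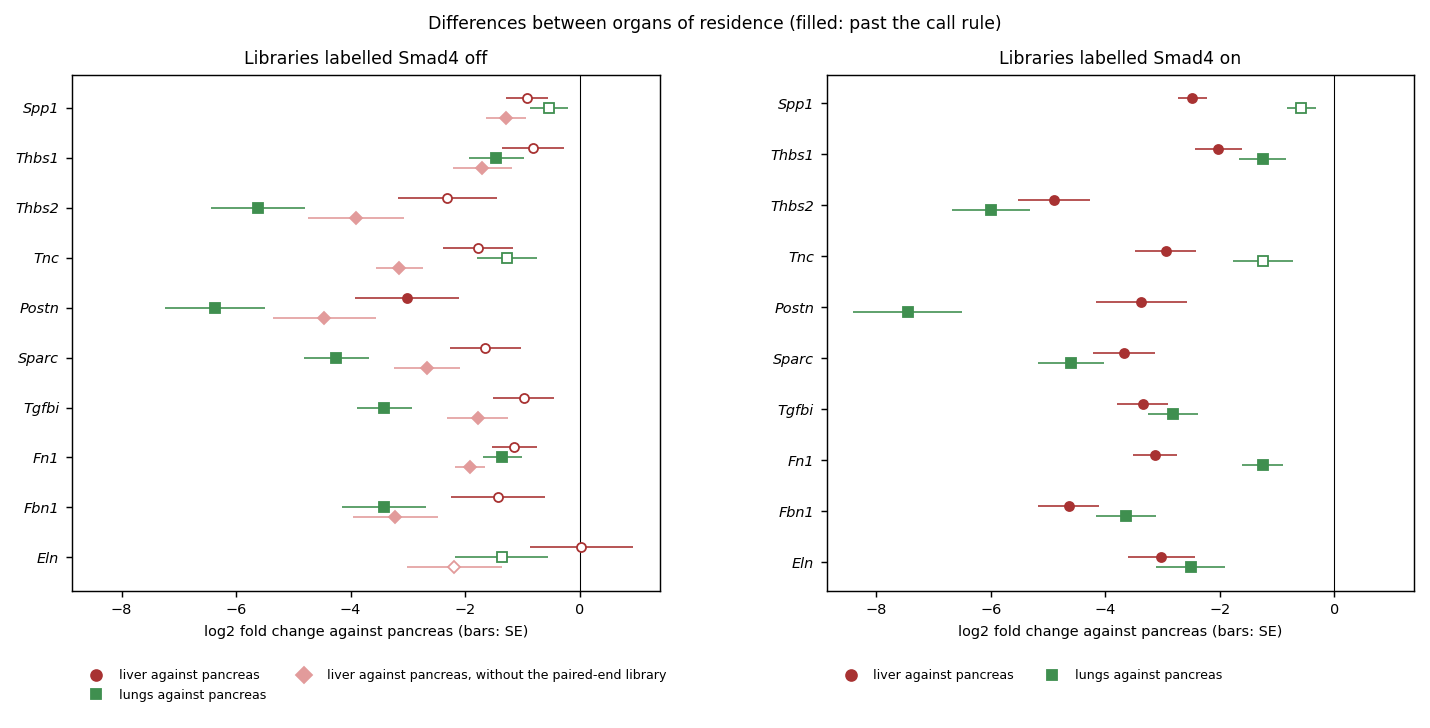
Log2 fold change of each gene in the liver (circles) and lungs (squares) against the pancreas, in libraries labelled Smad4 off (left) and on (right), with bars of 1 SE from edgeR and filled symbols for genes past the call rule. Pale diamonds leave out the paired-end liver library, which moves all 10 liver values labelled off down, and *Postn* and *Thbs2* in the lungs lie farthest from 0 in both panels.

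Labels were compared within each organ and day, the comparison the study was designed for. In the pancreas no member was called on day 7, where 1.33% of 14439 genes were, with 1 of the 10 at an unadjusted p under 0.05 by edgeR (23.1% of genes) and 0 called by DESeq2 (3.58%). On day 14 *Fn1* alone was called, lower in libraries labelled Smad4 on, where 4.64% of genes were. In the liver on day 7 no member was called by edgeR and 0.444% of 16007 genes were, with 7 members at an unadjusted p under 0.05 by edgeR, where 27.1% of genes were, and 8 called by DESeq2, where 17.8% were. All 10 members were lower there in libraries labelled on, with a median log2 fold change of -3.32 against -0.06 over all genes. This rests on the paired-end library: with it left out, 4 members had positive log2 fold changes, *Postn* (3.45 ± 0.87), *Thbs2* (2.29 ± 0.47), *Eln* (2.21 ± 0.46) and *Fbn1* (0.18 ± 0.39), and none was called, where 4.98% of genes were. That fit has a single library labelled off, which is assumed to vary like those labelled on, and the same holds for the fit without the other one, that of mouse 1, where the paired-end library stood alone and all 10 were called lower, where 19.8% of genes were called.

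On day 14 no member was called in the liver, where 0% of 14947 genes were, with 2 members at an unadjusted p under 0.05 by edgeR (9.68% of genes) and 2 called by DESeq2 (*Fn1* and *Tgfbi*, where 2.22% of genes were). In the lungs no member was called on day 7 (0% of genes called, 3 members at an unadjusted p under 0.05 by edgeR, as were 5.22% of genes, and *Thbs2* called by DESeq2, as were 0.658%). None was called on day 14 either (0.0271% of genes called, 1 member at an unadjusted p under 0.05, as were 10.1% of genes, 0 called by DESeq2, as were 1.34%). With same-numbered libraries of both labels as a block (the replicate block), 0.739% of genes were called there and again 0 members. In a fit of all 35 libraries, with each organ and day as its own level, 7 members were lower in liver libraries labelled Smad4 on over both days, where 13.2% of 17547 genes were called. Without the paired-end library, 4 members were called (7.3% of genes), *Fn1*, *Tgfbi* and *Spp1* lower and *Postn* higher. The same fit called no member in the pancreas (0.94% of genes) or in the lungs (0.268%), with 1 member at an unadjusted p under 0.05 by edgeR (14.7% and 8.82% of genes) and 0 called by DESeq2 in each (2.01% and 0.758%).

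The difference between labels was itself compared between organs in that fit. Liver and lungs differed in it for *Fn1* and *Tgfbi*, where 1.66% of genes were called. Neither was called without the paired-end library, where 0.172% of genes were, and of 35 fits without 1 library the call of *Fn1* was lost in 10 (-2.2 to -1.28) and that of *Tgfbi* in 5 (-2.89 to -1.9). With the replicate block, 0 members and 0% of genes were called for this difference. Liver and pancreas differed for no member (0.513% of genes called, 6 members at an unadjusted p under 0.05 by edgeR, as were 14.1% of genes, *Fn1* and *Tgfbi* called by DESeq2, as were 2.55%). Without the paired-end library no member was called (0.0912% of genes). *Fn1* and *Spp1* then had an unadjusted p of 0.0148 and 0.028 by edgeR, and the others 0.0586 or more. Lungs and pancreas did not differ for any member either (0.0057% of genes called, 0 members at an unadjusted p under 0.05, as were 7.44% of genes, 0 called by DESeq2, as were 0.148%).

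**Figure D3:**
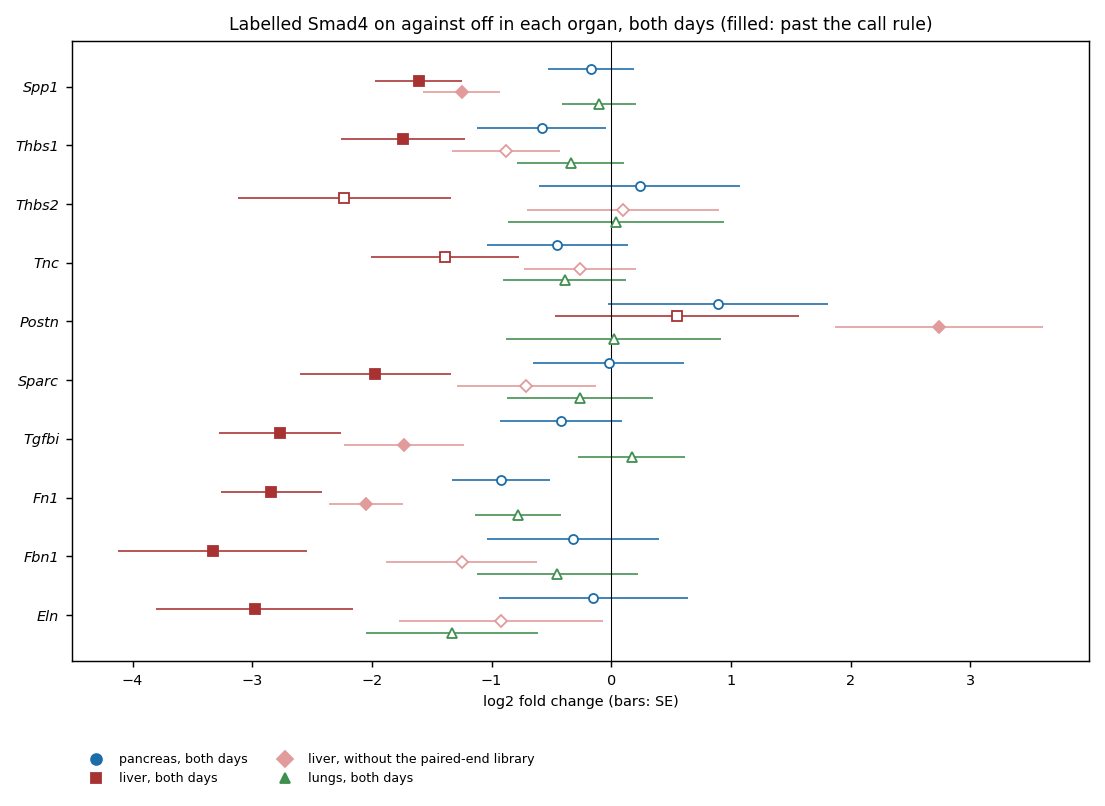
Log2 fold change of libraries labelled Smad4 on against off over both days, in the pancreas (circles), liver (squares) and lungs (triangles), with bars of 1 SE and filled symbols for genes past the call rule. Pale diamonds are the liver without the paired-end library, where *Fn1*, *Tgfbi* and *Spp1* stay below 0 and called while *Postn* lies above 0 and called and the others are not called.

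**Figure D4:**
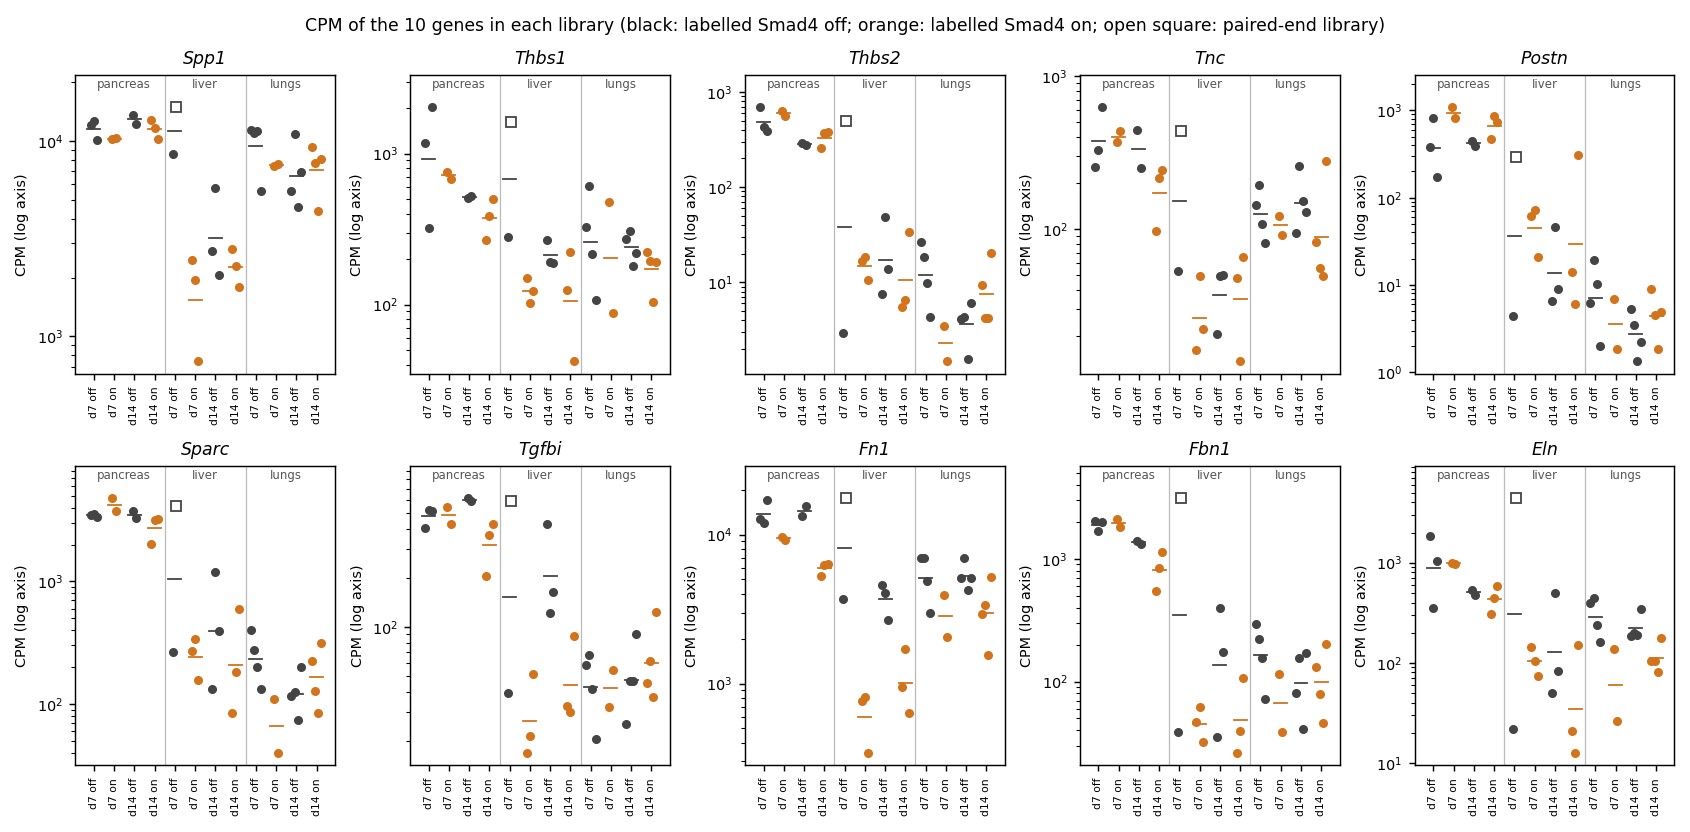
CPM (log axis) of each of the 10 genes in every library, by organ, day (d7, d14) and label, with a line at the geometric mean of each group. The open square is the paired-end liver library, the highest of the liver libraries for 9 of the 10 genes, the exception being *Postn*.

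Fibronectin was called lower in libraries labelled Smad4 on in the pancreas on day 14 and in the liver over both days. *Fn1* (ENSMUSG00000026193, chr1:71585520-71653200, minus strand, GRCm38) encodes the dimeric glycoprotein that cells pull into fibrils through the integrin α5β1. In the pancreas it stood at 12800, 12000 and 17100 CPM in libraries labelled off and 9650 and 9240 CPM labelled on at day 7, and at 13400 and 15500 against 5250, 6240 and 6380 CPM at day 14. All 5 libraries labelled on were below the 5 labelled off. On day 14 the log2 fold change was -1.25 ± 0.12 (adjusted p = 0.00135 by edgeR), and it was called without each library in turn, but not in a single fit of the 12 groups (adjusted p = 0.422).

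In the liver *Fn1* stood at 3710 and 17600 CPM labelled off against 760, 814 and 344 CPM labelled on at day 7, the 17600 from the paired-end library, and at 4620, 4070 and 2690 against 953, 1710 and 631 CPM at day 14. The 5 libraries labelled off and the 6 labelled on did not overlap, with or without the paired-end library. Over both days the log2 fold change was -2.84 ± 0.42 (adjusted p = 2.85e-05 by edgeR), and -2.05 ± 0.31 (adjusted p = 7.77e-05) without that library. It was called under each of the 42 alternatives run. Between libraries with *mt-Co3* counts alone, 1 under each label on each day and the paired-end library the one labelled off on day 7, log2 CPM labelled on minus off was -5.68 on day 7 and -2.1 on day 14, and between those without, mean log2 CPM differed by -2.24 and -1.76.

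In the lungs *Fn1* stood at 6940, 6940, 4870 and 2970 CPM labelled off and 3920 and 2040 CPM labelled on at day 7, and at 5100, 6980, 4260 and 5090 against 2920, 3360, 1560 and 5190 CPM at day 14. The groups overlapped on both days. The log2 fold changes were -0.85 ± 0.46 and -0.72 ± 0.34 and were not called. With the values of the other organs, *Fn1* was negative in all 6 comparisons of labels. The difference between labels was lower in the liver than in the lungs by -2.06 ± 0.54 in log2 (adjusted p = 0.0383 by edgeR), and by -1.28 ± 0.41 (adjusted p = 0.15) without the paired-end library. It was not called with the replicate block either. Against the pancreas, *Fn1* labelled on was 8.78-fold lower in the liver (adjusted p = 1.01e-05) and 2.38-fold lower in the lungs (adjusted p = 0.0163). *Apol7d* overlaps *Fn1* on the other strand.

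Over the 35 libraries, the genes whose log2 CPM were most like *Fn1* were *Dpysl3* (Pearson's r = 0.973), *Timp2* (0.964) and *Farp1* (0.961), and within the pancreas, liver and lungs *Dpysl3* had r of 0.965, 0.958 and 0.935. Such correlations describe libraries that share organ, label and preparation. With *Thbs2*, *Sparc* and *Postn* its r were 0.58, 0.617 and 0.37.

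TGFBI, or transforming growth factor beta-induced protein, binds collagens and integrins through fasciclin domains. *Tgfbi* (ENSMUSG00000035493, chr13:56609523-56639562, plus strand) stood in the pancreas at 405, 521 and 512 CPM labelled off and 543 and 426 CPM labelled on at day 7. At day 14 it stood at 614 and 590 CPM labelled off and 205, 366 and 424 CPM labelled on, with no overlap, a log2 fold change of -0.84 ± 0.32 and no call (adjusted p = 0.168 by edgeR). The pancreas groups thus overlapped on day 7 and not on day 14.

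In the liver *Tgfbi* stood at 39.5 CPM and, in the paired-end library, 592 CPM labelled off against 17, 21.5 and 51.1 CPM labelled on at day 7. At day 14 it stood at 427, 121 and 164 CPM against 32.7, 30.1 and 88.2 CPM, with no overlap. Over both days the log2 fold change was -2.77 ± 0.51 (adjusted p = 0.000287 by edgeR), and -1.73 ± 0.50 (adjusted p = 0.0196) without the paired-end library. On day 7 without that library it was -0.52 ± 0.60, against -2.29 ± 0.65 on day 14. Within the libraries with *mt-Co3* counts, again 1 against 1 and on day 7 against the paired-end library, log2 CPM labelled on minus off was -3.52 on day 7 and -0.89 on day 14, and within those without it was -1.03 and -2.84.

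In the lungs *Tgfbi* was low under both labels, at 58.7, 66.9, 41.7 and 20.6 CPM labelled off against 32.3 and 54.7 CPM labelled on at day 7. At day 14 it stood at 25.4, 46.6, 46.4 and 90.8 CPM against 45.3, 61.4, 37.1 and 123 CPM. These groups overlapped on both days, with log2 fold changes of -0.06 ± 0.45 and 0.34 ± 0.47. The difference between labels was lower in the liver than in the lungs by -2.94 ± 0.67 in log2 (adjusted p = 0.023 by edgeR), and by -1.9 ± 0.63 (adjusted p = 0.162) without the paired-end library. With the replicate block it was not called either. Labelled on, *Tgfbi* was 10.2-fold lower in the liver and 7.05-fold lower in the lungs than in the pancreas (adjusted p = 2.44e-05 and 0.000284). The genes most like it over the 35 libraries were *Htra1* (r = 0.922), *Cyth3* (0.92) and *Nexn* (0.92).

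Osteopontin, the ligand of αv integrins and CD44 encoded by *Spp1* (ENSMUSG00000029304, chr5:104435118-104441050, plus strand), was lower in liver libraries labelled Smad4 on and not called between labels in the pancreas or lungs. In the pancreas it stood at 12100, 12600 and 10100 CPM labelled off and 10200 and 10300 CPM labelled on at day 7, and at 13600 and 12200 against 12700, 11600 and 10200 CPM at day 14. These groups overlapped, and the log2 fold changes were -0.16 ± 0.17 and -0.15 ± 0.11. In the liver *Spp1* stood at 8530 and, in the paired-end library, 14900 CPM labelled off against 2450, 1950 and 747 CPM labelled on at day 7, without overlap. At day 14 it stood at 2740, 5740 and 2060 CPM against 2810, 2290 and 1790 CPM, with overlap.

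Over both days *Spp1* was lower in liver libraries labelled on by -1.61 ± 0.36 in log2 (adjusted p = 0.00155 by edgeR), and by -1.25 ± 0.32 (adjusted p = 0.00954) without the paired-end library, and it was called under each of the 42 alternatives. In the lungs it stood at 11300, 11000, 11200 and 5530 CPM labelled off against 7420 and 7640 CPM labelled on at day 7. At day 14 it stood at 5510, 10800, 4610 and 6920 CPM against 9260, 7660, 4400 and 8110 CPM. The lungs' groups overlapped, with log2 fold changes of -0.34 ± 0.39 and 0.08 ± 0.32. The difference between labels in the liver against that in the lungs was -1.51 ± 0.47 and was not called (adjusted p = 0.0756 by edgeR, 0.0147 by DESeq2). *Spp1* labelled on was 5.57-fold lower in the liver than in the pancreas (adjusted p = 3.93e-06) and 3.72-fold lower than in the lungs (adjusted p = 0.000207), and its groups in lungs and pancreas differed 1.5-fold, without overlap but also without a call (adjusted p = 0.0944).

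Macrophages are a usual source of osteopontin. The cells were sorted for mKate2. The 9 macrophage markers summed to 30.8 to 368 CPM, with none at 0 in any library, and *Spp1* stood at 747 to 14900 CPM. The part of macrophages in the level of *Spp1* was not tested. Its nearest genes over the 35 libraries were *Medag* (r = 0.923), *Bmper* (0.922) and *Olr1* (0.908), which within the pancreas had r of 0.227, 0.064 and -0.222. *Gm42793* overlaps *Spp1* on the same strand, and reads could be shared between them.

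Periostin, a fasciclin-domain protein that binds αv integrins and collagen, was the member with the widest range. *Postn* (ENSMUSG00000027750, chr3:54361109-54391037, plus strand) stood in the pancreas at 380, 810 and 173 CPM labelled off and 1100 and 811 CPM labelled on at day 7, and at 443 and 396 against 468, 856 and 745 CPM at day 14. On both days each library labelled on exceeded each labelled off of that day. The log2 fold changes of 1.08 ± 0.62 and 0.74 ± 0.27 were not called (adjusted p = 0.358 and 0.148 by edgeR). Summed fibroblast markers were 11900 to 17200 CPM labelled off and 23900 to 24700 CPM labelled on at day 7 and overlapped at day 14, and their part was not tested.

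In the liver *Postn* stood at 4.42 CPM and, in the paired-end library, 294 CPM labelled off against 62.2, 71.5 and 20.9 CPM labelled on at day 7. At day 14 it stood at 6.54, 46 and 8.89 CPM against 14.1, 5.99 and 309 CPM. The 2 highest values thus came from single libraries, 1 under each label. Over both days the log2 fold change was 0.55 ± 1.02 (adjusted p = 0.756 by edgeR). It was 2.74 ± 0.87 (adjusted p = 0.0325) without the paired-end library, and -1.28 without the library of mouse 3 labelled on of day 14, so that single libraries set its direction. In the lungs it ranged from 1.34 to 19.6 CPM (median 4.43) in 8 libraries labelled off and from 1.85 to 8.93 CPM (median 4.71) in 6 labelled on, and was not called on either day.

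Between lungs and pancreas *Postn* had the largest folds of the members under both labels. In libraries labelled on it was 175-fold lower in the lungs than in the pancreas (log2 fold change -7.45 ± 0.95, adjusted p = 5.86e-05 by edgeR), and in those labelled off 82.8-fold lower (-6.37 ± 0.87, adjusted p = 7.71e-05). The liver lay between, 10.4-fold under the pancreas labelled on (adjusted p = 0.00267) and 16.9-fold over the lungs (adjusted p = 0.00273). Without mouse 3 labelled on of the liver on day 14 these log2 fold changes went from -3.37 to -4.92 and from 4.08 to 2.33, both still called. The genes most like it were *Aspn* (r = 0.966), *Itgbl1* (0.962) and *Dcn* (0.961), the last a member of the fibroblast marker list.

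SPARC and thrombospondin-2 had the highest correlation of any pair of members across libraries. *Sparc* (ENSMUSG00000018593, chr11:55394500-55423183, minus strand) encodes a collagen-binding protein of the assembling matrix, and *Thbs2* (ENSMUSG00000023885, chr17:14665500-14694262, minus strand) a trimeric matricellular protein that restrains angiogenesis and clears matrix proteases. Their log2 CPM correlated at r = 0.98 over the 35 libraries, and at 0.644, 0.911 and 0.953 within the pancreas, liver and lungs. *Col8a1* (0.978 with *Thbs2*, 0.982 with *Sparc*) and *Col1a1* (0.976 and 0.979) were the other nearest genes of both. *Col1a1* is a fibroblast marker.

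*Sparc* stood in the pancreas at 3510, 3580 and 3380 CPM labelled off and 4780 and 3730 CPM labelled on at day 7, and at 3720 and 3280 against 2010, 3160 and 3260 CPM at day 14. The groups did not overlap on either day, and they changed places between the days, libraries labelled on being higher at day 7 and lower at day 14. Neither difference was called (log2 fold changes 0.30 ± 0.16 and -0.29 ± 0.22, adjusted p = 0.308 and 0.439 by edgeR). *Thbs2* stood there at 698, 426 and 389 CPM against 636 and 557 CPM, and at 289 and 280 against 258, 372 and 380 CPM, with overlap on both days.

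In the liver *Sparc* stood at 264 and, in the paired-end library, 4130 CPM labelled off against 268, 338 and 157 CPM labelled on at day 7, and at 133, 1200 and 392 against 84.8, 181 and 597 CPM at day 14. *Thbs2* stood at 2.92 and 490 CPM against 16.9, 18.4 and 10.6 CPM, and at 7.5, 48.4 and 13.8 against 5.51, 6.49 and 33.5 CPM. The paired-end library was the highest of the liver libraries for both genes. Over both days *Sparc* was called lower in libraries labelled on (-1.97 ± 0.63, adjusted p = 0.0211 by edgeR), but not without that library (-0.71 ± 0.58, adjusted p = 0.457) nor without any of 3 others, mice 1 and 3 labelled on of day 7 and mouse 2 labelled off of day 14 (-1.84, -1.74 and -1.69), and *Thbs2* went from -2.23 ± 0.89 (adjusted p = 0.0651) to 0.10 ± 0.80.

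In the lungs *Sparc* stood at 401, 276, 201 and 132 CPM labelled off against 110 and 40.1 CPM labelled on at day 7, with no overlap, and at 116, 126, 74.1 and 200 against 226, 128, 83.9 and 315 CPM at day 14. *Thbs2* stood at 26.5, 18.6, 9.87 and 4.3 CPM against 3.5 and 1.48 CPM, also with no overlap, and at 4.15, 4.35, 1.55 and 6.03 against 9.37, 4.17, 4.23 and 20.4 CPM. On day 7 the log2 fold changes were -1.73 ± 0.55 and -2.55 ± 0.79, with adjusted p of 0.894 and 0.884 by edgeR. Fibroblast markers summed there to 427 to 2030 CPM labelled off and 162 to 413 CPM labelled on, and their part was not tested. Against the pancreas, lungs labelled on were 24.2-fold lower for *Sparc* (adjusted p = 4.51e-05) and 64.1-fold lower for *Thbs2* (adjusted p = 2.34e-05, log2 fold change -6 and -6.59 without mouse 4 of the lungs on day 14), and labelled off 19.1-fold and 49.2-fold lower (adjusted p = 7.21e-05 and 0.000133).

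Thrombospondin-1, the better known activator of latent TGF-β and ligand of CD36 and CD47, was less closely tied to its paralog. *Thbs1* (ENSMUSG00000040152, chr2:118111876-118127133, plus strand) correlated with *Thbs2* at r = 0.657, and its nearest genes were *4931406P16Rik* (0.896), *Bace1* (0.893) and *Afap1* (0.893). In the pancreas it stood at 1180, 320 and 2040 CPM labelled off and 757 and 677 CPM labelled on at day 7, and at 509 and 525 against 267, 386 and 498 CPM at day 14. In the liver it stood at 282 and, in the paired-end library, 1610 CPM against 151, 103 and 122 CPM, and at 267, 190 and 187 against 124, 223 and 42.1 CPM. The groups of the liver did not overlap on day 7, and those of the pancreas did not on day 14.

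In the lungs *Thbs1* ranged from 107 to 613 CPM (median 246) labelled off and from 87.3 to 476 CPM (median 192) labelled on. Its log2 fold change was negative in all 6 comparisons of labels, from -2.99 in the liver to -0.15 in the lungs on day 7. None was called by edgeR, and that of the liver on day 7 was by DESeq2 (adjusted p = 0.000453). Over both days in the liver it was called (-1.74 ± 0.52, adjusted p = 0.015 by edgeR), but not without the paired-end library (-0.88 ± 0.45, adjusted p = 0.199). Labelled on, it was 4.07-fold lower in the liver than in the pancreas (adjusted p = 0.00093) and 2.38-fold lower in the lungs (adjusted p = 0.0313), the latter call being lost without any of 4 libraries, mice 1 and 2 of the pancreas on day 7 and mice 3 of the pancreas and of the lungs on day 14 (-1.21 to -1.13). The lincRNA *Gm29233* overlaps *Thbs1* on the other strand.

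Tenascin-C is a hexameric protein that loosens the adhesion of cells to fibronectin and is found in wounds and metastatic niches. Its gene was called lower in the lungs than in the pancreas by DESeq2. The main edgeR fits did not call it. Without 1 library, edgeR called it in 3 of 18 fits labelled off and in 2 of 17 labelled on. *Tnc* (ENSMUSG00000028364, chr4:63959785-64047015, minus strand) stood in the pancreas at 256, 330 and 633 CPM labelled off and 373 and 437 CPM labelled on at day 7, and at 448 and 252 against 97.8, 218 and 245 CPM at day 14. In the liver it stood at 53.5 and, in the paired-end library, 443 CPM against 16.3, 49.6 and 22.1 CPM, and at 20.6, 49.2 and 49.9 against 47.7, 13.7 and 65.6 CPM. The groups were apart in the pancreas on day 14 and in the liver on day 7, by little in each. In the lungs it ranged from 81.1 to 260 CPM (median 137) labelled off and from 49.7 to 280 CPM (median 87) labelled on.

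The level of *Tnc* in the lungs was above that in the liver, 3.25-fold labelled on (adjusted p = 0.026 by edgeR, lost without mouse 1 or 3 of the liver on day 7 or mouse 4 of the lungs on day 14, -1.59 to -1.14 in log2) and, without the paired-end library, by 1.76 ± 0.36 in log2 labelled off (adjusted p = 0.00906). Lungs and pancreas overlapped under both labels (log2 fold change -1.27 ± 0.53 labelled off, adjusted p = 0.0729 by edgeR and 0.0338 by DESeq2, and -1.39 ± 0.31, adjusted p = 0.00199 by edgeR, without the paired-end liver library in the shared fit). Labelled on, it was -1.25 ± 0.53 (adjusted p = 0.0868 by edgeR and 0.038 by DESeq2). Labelled on, the liver was 7.7-fold under the pancreas (adjusted p = 0.000413). The genes most like *Tnc* were *Nckap5l* (r = 0.885), *Rflna* (0.885) and *Prickle1* (0.882), and the non-coding *8030451A03Rik* overlaps it on the other strand.

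The microfibril and elastic fiber genes were lower in liver and lungs than in the pancreas in libraries labelled Smad4 on. *Fbn1* (ENSMUSG00000027204, chr2:125300594-125507993, minus strand), whose fibrillin-1 polymers carry latent TGF-β, stood in the pancreas at 2020, 1680 and 1990 CPM labelled off and 2120 and 1810 CPM labelled on at day 7, and at 1390 and 1330 against 549, 848 and 1130 CPM at day 14. The groups were apart on day 14 alone, with a log2 fold change of -0.67 ± 0.31 and no call (adjusted p = 0.233 by edgeR). In the liver it stood at 38.6 and, in the paired-end library, 3120 CPM against 46.8, 61.8 and 32.4 CPM, and at 35.6, 396 and 175 against 26.4, 39.9 and 106 CPM. In the lungs it ranged from 40.9 to 294 CPM (median 155) labelled off and from 38.9 to 203 CPM (median 97.8) labelled on.

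The call of *Fbn1* over both days in the liver (-3.33 ± 0.79, adjusted p = 0.00271 by edgeR) was lost without it (-1.25 ± 0.63, adjusted p = 0.188). Labelled on, *Fbn1* was 24.9-fold lower in the liver and 12.4-fold lower in the lungs than in the pancreas (adjusted p = 7.05e-06 and 0.000128). Its nearest genes were *Fstl1* (r = 0.969), *Kif26b* (0.957) and *Nuak1* (0.953), with r of *Fstl1* of 0.903, 0.916 and 0.922 within pancreas, liver and lungs. *Gm9913* overlaps it on the other strand.

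*Eln* (ENSMUSG00000029675, chr5:134702593-134747323, minus strand), the precursor of cross-linked elastin, stood in the pancreas at 1840, 350 and 1040 CPM labelled off and 1000 and 975 CPM labelled on at day 7, and at 536 and 477 against 310, 447 and 587 CPM at day 14, with overlap. In the liver it stood at 21.6 and, in the paired-end library, 4410 CPM against 144, 104 and 73.5 CPM, and at 50.3, 501 and 83 against 20.7, 12.7 and 152 CPM. Over both days it was called in the liver (-2.98 ± 0.82, adjusted p = 0.00815 by edgeR) and not without the paired-end library (-0.92 ± 0.85, adjusted p = 0.522) or mouse 2 labelled off of day 14 (-2.61).

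In the lungs *Eln* did not overlap between labels on either day. It stood at 394, 441, 241 and 160 CPM labelled off against 138 and 26 CPM labelled on at day 7, and at 186, 197, 188 and 342 against 104, 104, 81.4 and 178 CPM at day 14. The log2 fold changes of -1.91 ± 0.71 and -0.97 ± 0.29 were not called (adjusted p = 0.956 and 0.305 by edgeR), and that over both days was -1.33 ± 0.72. Leaving out 1 library moved the value of day 7 between -3.5 and -1.18 and that of day 14 between -1.26 and -0.7. In the sets with and without *mt-Co3* counts, of which that with counts held 1 library per label on day 7, mean log2 CPM labelled on minus off was -2.59 and -1.33 on day 7 and -1.08 and -0.87 on day 14. Labelled on, *Eln* was 8.09-fold lower in the liver and 5.7-fold lower in the lungs than in the pancreas (adjusted p = 0.000675 and 0.00554), the former moving from -3.02 to -3.65 in log2 without mouse 3 of the liver on day 14. Its nearest genes were *Tln2* (r = 0.91), *Cmklr1* (0.907) and *Gm2115* (0.896), and *Gm30003* overlaps it on the other strand.

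Fibroblast markers moved with several members between organs. The 10 markers (*Col1a1*, *Col1a2*, *Col3a1*, *Dcn*, *Lum*, *Dpt*, *Pdgfra*, *Pdgfrb*, *Thy1* and *Fap*) summed to 8930 to 24700 CPM in the pancreas, 162 to 2030 CPM in the lungs and 261 to 4350 CPM in the liver libraries other than the paired-end one, and none was at 0 in any library. All 10 were called lower in liver and in lungs than in the pancreas in libraries labelled on, as were all 10 in lungs labelled off. Over all genes 11.3%, 6.98% and 6.93% were called lower in these comparisons, in that order. *Thbs1*, *Thbs2*, *Postn*, *Sparc*, *Fn1*, *Tgfbi* and *Fbn1* were called lower in each of them. The 5 acinar markers summed to 559 to 2740 CPM in the pancreas and to 2.89 to 16.7 CPM in the other libraries but the paired-end one, whereas the ductal sums ran the other way, lower in the pancreas than in these livers. The cells were sorted for mKate2, and the part of these markers in the organ differences was not tested. Within the liver, *Fn1* was lower in all libraries labelled on, at fibroblast sums of 367 to 3030 CPM, than in those labelled off, at 261 to 4350 CPM and 36200 CPM. In the pancreas on day 14, where *Fn1* was called lower, 0 fibroblast markers were called lower and 1 higher by edgeR, as were 1.26% and 3.39% of all genes. The 5 smooth muscle and pericyte markers summed there to 950 and 1090 CPM labelled off and to 224, 397 and 459 CPM labelled on, and on day 7 to 875, 1040 and 1200 CPM against 435 and 775 CPM. Their sums were thus lower labelled on, without overlap, on both days, as was *Fn1*. The ductal markers summed on day 14 to 4260 and 4670 CPM labelled off and to 5490, 5590 and 7850 CPM labelled on. In the liver, where *Fn1*, *Tgfbi* and *Spp1* were called lower labelled on over both days, 5 platelet and megakaryocyte markers summed to 3.44 to 8 CPM labelled off and to 13.9 to 30.2 CPM labelled on, without overlap, with *Gp9* at 0 in both libraries labelled off on day 7. These sums were higher labelled on, without overlap, in the other organs and days too, as in the pancreas on day 14 (7.16 and 7.31 CPM against 8.44, 15.1 and 17.1 CPM), where the hepatocyte sums were 1.74 and 2.59 CPM against 5.97, 8.39 and 11.2 CPM. The 7 hepatocyte markers summed on day 7 to 1.53 and 16.8 CPM labelled off and to 57.1, 75 and 142 CPM labelled on, and on day 14 to 21.9 to 48.1 CPM and 36.1 to 41.3 CPM, which overlapped. The part of these markers in the differences between labels was not tested.

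**Figure D5:**
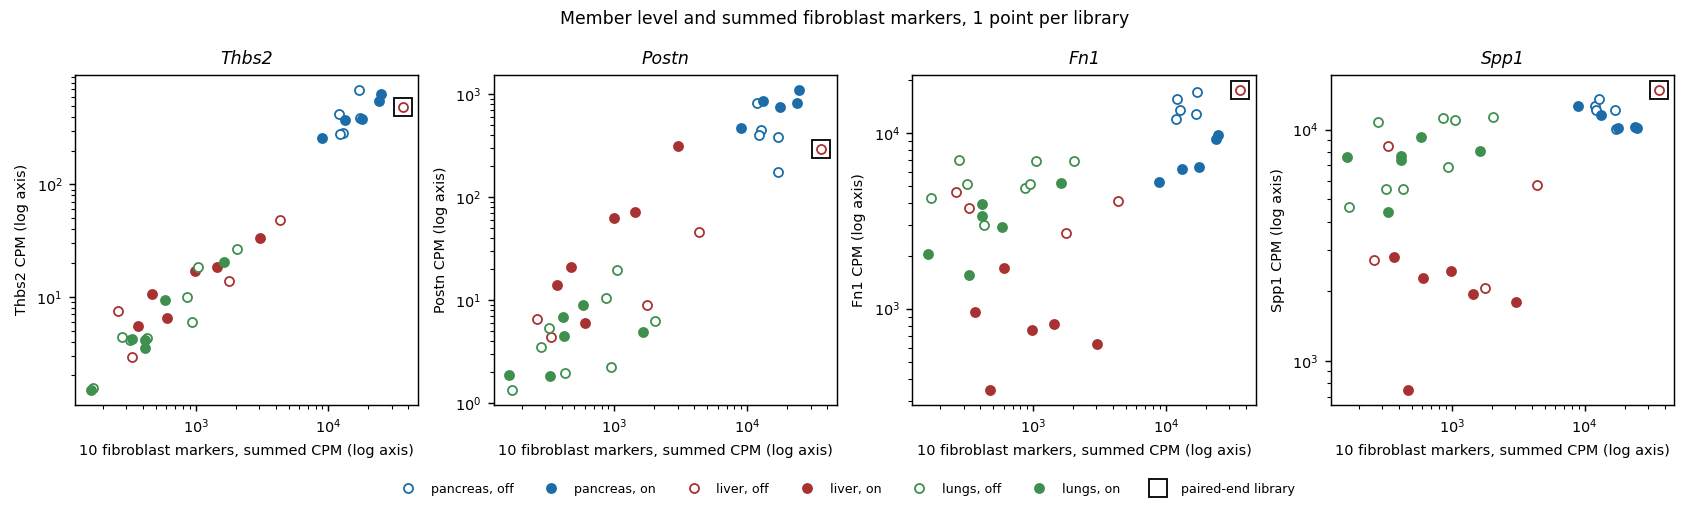
CPM of *Thbs2*, *Postn*, *Fn1* and *Spp1* (log axis) against the summed CPM of 10 fibroblast markers (log axis), 1 point per library, colored by organ, open for labelled Smad4 off and filled for labelled Smad4 on, with a square around the paired-end library. *Thbs2* is low where the markers are low, from 1.48 CPM in the lungs to 698 CPM in the pancreas, whereas *Fn1* and *Spp1* in liver libraries labelled on reach the lowest values of any library, and those of *Thbs2* and *Postn* lie in the lungs.

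Relatives of the members, 32 genes of the same families, were also compared between labels. In the pancreas on day 7, 4 of 29 tested were called higher and 1 lower in libraries labelled on, and on day 14, 4 and 2 of 27. Over all genes 0.956% were higher and 0.374% lower on day 7, and 3.39% and 1.26% on day 14. Fibroblast markers summed on day 7 to 11900 to 17200 CPM labelled off and to 23900 and 24700 CPM labelled on. The acinar sums were 1500 to 2500 CPM against 559 and 813 CPM. The part of these markers was not tested. *Matn4*, a matrilin, had log2 fold changes of 4.67 ± 0.37 and 4.18 ± 0.47 on the 2 days (adjusted p = 0.00556 and 0.00228 by edgeR), *Nid2*, a basement membrane nidogen, 2.9 ± 0.22 on day 7 (adjusted p = 0.00496), and *Fbln1*, a fibulin of elastic fibers, 2.32 ± 0.21 on day 7 (adjusted p = 0.0108). *Comp*, the fifth thrombospondin, was higher on day 14 (1.84 ± 0.29, adjusted p = 0.00684). *Fbln2*, which binds fibronectin and fibrillin, was lower there by -1.43 ± 0.10 (adjusted p = 0.000383), in the liver over both days by -3.48 ± 0.36 (adjusted p = 4.61e-07) and in the lungs over both days by -1.53 ± 0.31 (adjusted p = 0.0217). It was the single relative called in the lungs, of 31 tested. In the liver over both days 8 relatives were lower and 0 higher of 31, *Nid1* (-1.95 ± 0.37) and *Matn2* (-1.2 ± 0.29) among them, where 6.43% of all genes were lower. Without the paired-end library 3 were lower and 1 higher, where 3.59% of genes were lower. *Fbln2* (-2.97 ± 0.30) and *Nid1* (-1.49 ± 0.36) were called there and *Matn2* (-0.54 ± 0.25) was not.

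Receptors and assembly partners, 25 genes, were called in the pancreas for *Stab1* on day 7 (-1.32 ± 0.20, adjusted p = 0.0334 by edgeR), the scavenger receptor that takes up SPARC. Macrophage markers summed there to 118 to 152 CPM labelled off and to 84.4 and 105 CPM labelled on, and their part was not tested. On day 14 the genes called were *Bmp1*, a protease of procollagen and other matrix precursors (-1.26 ± 0.13, adjusted p = 0.00181), and *Itga8*, an integrin chain that binds fibronectin and osteopontin (3.17 ± 0.54, adjusted p = 0.00887). In the liver over both days 7 were lower and 3 higher, where 6.43% of genes were lower and 6.74% higher. Without the paired-end library 4 were lower and 1 higher, where 7.3% of genes were called and 3.59% lower. Those with the lowest adjusted p were *Itga5*, the α chain of the fibronectin receptor (-2.08 ± 0.25, adjusted p = 3.18e-06), *Bmp1* (-2.33 ± 0.29, adjusted p = 3.96e-06) and *Itgb3* (-3.17 ± 0.47, adjusted p = 3.03e-05), and all 3 were called without that library as well (-1.94 ± 0.26, -1.89 ± 0.25 and -2.49 ± 0.38). The same 3 were called for the difference between liver and lungs, with log2 values of -1.26 ± 0.33, -1.63 ± 0.38 and -2.29 ± 0.59 (adjusted p = 0.0413, 0.0257 and 0.0376 by edgeR), where 1.66% of genes were called. Without the paired-end library none of the 25 was called, where 0.172% of genes were, with 6 at an unadjusted p under 0.05 by edgeR. *Itga5*, *Bmp1* and *Itgb3* then had log2 values of -1.11 ± 0.34, -1.19 ± 0.33 and -1.61 ± 0.49 (adjusted p = 0.141, 0.109 and 0.137 by edgeR). None was called in the lungs over both days, where 0.268% of genes were, and 7 of 25 had an unadjusted p under 0.05 by edgeR, as did 8.82% of genes.

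Between organs, *Lox*, which cross-links collagen and elastin, was lower in the lungs than in the pancreas by -4.32 ± 0.62 labelled off (adjusted p = 0.000109 by edgeR) and by -3.69 ± 0.48 labelled on (adjusted p = 6.32e-05). It was lower in the liver labelled on by -4.04 ± 0.48 (adjusted p = 9.46e-06). *Cd36*, a receptor of thrombospondin-1, went the other way in the lungs labelled off (3.5 ± 0.47, adjusted p = 6.82e-05). Endothelial markers summed to 39.4 to 99.7 CPM in these lungs and to 20.6 to 36.7 CPM in the pancreas labelled off. Markers of lung epithelium summed to 64.2 to 408 CPM and to 0.628 to 1.09 CPM. The part of these markers was not tested. Of the relatives, 18 of 27 were lower in the liver and 16 in the lungs than in the pancreas labelled on, and 0 were higher in either. Over all genes, 11.3% were lower in the liver and 6.98% in the lungs. *Fndc1* and *Fbln1* had the lowest adjusted p of the relatives in the liver (-6.35 ± 0.49 and -4.37 ± 0.35).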

How the data were processed

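RNA from sorted mKate2-positive cells was sequenced in 35 libraries, and the authors deposited raw gene counts of 53465 genes. The submitters' processing notes name FastQC 0.11.5, Trimmomatic 0.36, STAR 2.5.3a and featureCounts 1.6.3, with mm10/GRCm38, and the strand setting of the counting is not given in the sources used here, so reads of overlapping genes may be shared. Groups follow the GEO labels, whose m numbers are written here as mouse numbers. The labels do not spell out that each is a separate animal, and p-values measure the spread between these libraries.

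Counts were tested with edgeR 4.0.16 (R 4.3.3; TMM factors, filterByExpr with minimum count 10 and minimum total 15, robust quasi-likelihood fit), with Benjamini-Hochberg adjustment over all genes tested. Calls required more than a 2-fold difference and an adjusted p below 0.05. Labels were compared within each organ and day, organs within each label with day as covariate, and labels over both days in a fit of all 35 libraries. SEs are the log2 fold change over the root of F. Mean log2 CPM used a pseudocount of 0.5. The tests were run on simulated data first. Alternatives were DESeq2 1.42.0, its size factors, other filters, a covariate for *mt-Co3*, single days, a single fit, a replicate block and leaving out each library. Same-numbered libraries of both labels deviated together in the lungs on day 14 (correlations of 0.47, 0.52, 0.61 and 0.55), where the block changed no member's call, and not in every pair of the other groups (-0.31 to 0.54). In those lungs mice 3 and 4 had *mt-Co3* counts under both labels and mice 1 and 2 under neither. Mouse 3 of the liver on day 14 (0.54) had such counts under both labels too. Shared number and shared *mt-Co3* counts cannot be told apart there.

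All 10 members are named with their values, with the 3 genes most like each by Pearson's r of log2 CPM, and up to 3 genes with the lowest adjusted p of each list of relatives and receptors per comparison. Members and lists were chosen with earlier results of these data known. A further allele that all groups share is not reported here.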

Additional observations from a re-analysis of the deposited data

Results flagged for a closer look

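Of 30 groups of 4 lung libraries tested, 2 held a library far from the others, where chance gives about 5%. *Spp1* in the lungs on day 7, labelled off, had 1 library at 5530 CPM under the other 3 at 11000 to 11300 CPM. *Eln* in the lungs on day 14, labelled off, had 1 library at 342 CPM over the other 3 at 186 to 197 CPM.

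The difference between labels was not the same in liver and lungs for *Fn1* (-2.06 ± 0.54 in log2, adjusted p = 0.0383 by edgeR) and *Tgfbi* (-2.94 ± 0.67, adjusted p = 0.023), and neither was called without the paired-end library or with the replicate block. On day 7 every library labelled on was above every library labelled off for *Sparc* in the pancreas (the lowest labelled on at 3730 CPM) and below in the lungs. These groups held 2 libraries labelled on and 3 or 4 labelled off, and neither organ's difference was called (adjusted p = 0.308 and 0.894 by edgeR). The share of all genes with such a pattern was not counted, and the difference between these organs on day 7 was not tested. Over both days, the difference between lungs and pancreas was -0.25 ± 0.88 (adjusted p = 0.992 by edgeR).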

How the results depend on the processing

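Of 4860 values of members under alternatives, 4565 kept their direction and side of the threshold, 94 passed it, 88 no longer passed it and 113 changed sign at 2 decimals, in 49 of 180 results, of which 0 had been called. Liver against pancreas labelled on kept 10 calls without each library in turn and with day 7 libraries alone, and had 7 with day 14 libraries alone. DESeq2 called 8 members in the liver on day 7 (17.8% of all genes), 1 in the lungs on day 7 (0.658%), 2 in the liver on day 14 (2.22%), 5 for liver against pancreas labelled off (11.5%), and 2 and 4 for the difference between labels in the liver against pancreas and lungs (2.55% and 4.85%). With no filter the counts were 2 in the liver on day 7 (3.34%), 0 and 2 for liver against pancreas and against lungs labelled off (3.52% and 1.62%), and 0 for the difference between labels in liver against lungs (0.287%). The single fit called 9 in the liver on day 7 (17.6%), 0 in the pancreas and 1 in the liver on day 14 (0.0912% and 1.45%). Labelled off, day 7 libraries alone gave 0 calls for liver against pancreas (0%), 4 for lungs against pancreas (10.9%) and 0 for liver against lungs (0.44%), and day 14 alone 7 for liver against pancreas (9.85%) and 0 for liver against lungs (0.874%). Labelled on, day 14 alone gave 5 for lungs against pancreas (7.73%) and 1 for liver against lungs (2.28%).

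The replicate block, over the 30 libraries whose number occurs under both labels, called 3 members in the liver over both days (8.84%) and 0 for the difference between labels in liver against lungs (0%), and moved no other count of calls by over 1.5 times. In log2, it turned *Thbs1* and *Eln* in the pancreas on day 7 to 0.22 and 0.3, *Postn* in the liver on day 7 to 0.79, *Tnc* in the liver on day 14 to -0.07 and *Thbs2* in the lungs over both days to -0.22. For the difference between labels, it turned *Postn* in liver against pancreas to 0.32, and *Thbs1*, *Tnc* and *Fn1* in lungs against pancreas to -0.37, -0.36 and -0.08. The *mt-Co3* covariate turned *Postn* in the liver on day 7 to 0.12, *Thbs1* and *Tgfbi* in the lungs on day 7 to 0.07 and 0.14, *Tnc* in the liver on day 14 to -0.02, *Eln* for liver against pancreas labelled off to -0.76, *Thbs2* and *Postn* in the lungs over both days to -0.11 and -0.03, and *Tnc* for the difference between labels in lungs against pancreas to -0.11. With single days, for liver against pancreas labelled off *Spp1* was 0.03 (day 7) and *Eln* -1.29 (day 14). For liver against lungs *Thbs1*, *Fn1* and *Eln* were -0.16, -0.46 and -0.12 (labelled off, day 14), *Tnc* and *Spp1* 0.9 and 0.26 (labelled off, day 7) and *Eln* 0.38 (labelled on, day 7). The causes were not tested.

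Leaving out 1 library gave 0 to 10 calls in the liver on day 7, 0 to 9 for liver against pancreas and 2 to 5 for liver against lungs labelled off, 4 to 9 in the liver over both days, and 0 to 3 for the difference between labels in the liver against pancreas and against lungs. In log2, leaving out 1 library moved these between labels across 0: in the pancreas on day 7 *Tnc* (-0.23 to 0.47), *Tgfbi* (-0.16 to 0.19), *Fbn1* (-0.06 to 0.18) and *Eln* (-0.54 to 0.52), on day 14 *Eln* (-0.42 to 0.05) and over both days *Sparc* (-0.19 to 0.1) and *Eln* (-0.37 to 0.13). The same held in the liver on day 7 for *Thbs2* (-5.02 to 2.29), *Postn* (-2.54 to 3.45), *Fbn1* (-6.07 to 0.18) and *Eln* (-5.39 to 2.21), on day 14 for *Thbs2* (-1.97 to 0.47), *Tnc* (-0.42 to 0.48), *Postn* (-1.06 to 3.79) and *Sparc* (-2.12 to 0.1) and over both days for *Thbs2* (-3.01 to 0.1) and *Postn* (-1.28 to 2.74). It also held in the lungs on day 7 for *Thbs1* (-1.78 to 0.58) and *Tgfbi* (-0.55 to 0.29), on day 14 for *Spp1* (-0.07 to 0.35), *Tgfbi* (-0.15 to 0.76) and *Fbn1* (-0.4 to 0.33) and over both days for *Thbs2* (-0.58 to 0.61), *Postn* (-0.31 to 0.41), *Sparc* (-0.58 to 0.14), *Spp1* (-0.2 to 0.05) and *Tgfbi* (-0.12 to 0.39). Between organs it did so for liver against pancreas labelled off in *Eln* (-2.19 to 0.38), and for liver against lungs labelled off in *Thbs1* (-0.13 to 0.82), *Fn1* (-0.53 to 0.41) and *Eln* (-0.59 to 1.79). For the difference between labels it did so in liver against pancreas for *Tnc* (-1.37 to 0.2) and *Postn* (-2.18 to 1.85), and in lungs against pancreas for *Thbs1* (-0.19 to 0.45), *Thbs2* (-0.82 to 0.37), *Tnc* (-0.41 to 0.27), *Sparc* (-0.56 to 0.16), *Spp1* (-0.02 to 0.23), *Fn1* (-0.04 to 0.28) and *Fbn1* (-0.43 to 0.17), and in liver against lungs for *Thbs2* (-3.04 to 0.07), *Tnc* (-1.45 to 0.13), *Postn* (-1.31 to 2.73) and *Eln* (-2.69 to 0.41). The lowest count of any member in any library was 24. The list counts without the paired-end library were chosen after seeing the data.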
